A study of Mus musculus with 24 samples.

Results

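Lysosome and vacuolar proton pump genes were followed in T6E cells, a Notch1-dependent mouse line of T-cell acute lymphoblastic leukaemia. The set was a list of 36 genes for subunits of the pump, the lysosomal membrane, lumenal enzymes and their transcriptional regulators. Of these, 35 were measured by a probe set with a single gene symbol, out of 19938 genes measured that way, and Atp6v0c was not analysed here. Where a gene had more than 1 such probe set, the one of highest mean level was used.

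All 24 arrays came from this one line carrying 1 of 4 constructs. MigR1 was the empty vector. DNMAML was a dominant negative Mastermind-like protein, which blocks the coactivator step of Notch transcription. ICN1 was intracellular Notch1, which acts without cleavage by gamma-secretase, and R1984A was an intracellular Notch1 with defective dimerization. Each construct was exposed for 6 hours to DMSO, the vehicle, or to compound E at 1 uM, a gamma-secretase inhibitor (GSI) that stops the release of the cells' own intracellular Notch1. The 8 groups of 3 arrays are named by construct and treatment, as in ICN1-GSI. The labels do not say whether the transfected cells were clones or pools, or whether the 3 arrays of a group stand for separate cultures. The p-values therefore measure only how far these arrays differ from each other, which may be technical.

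The vacuolar proton pump is a rotary complex that acidifies lysosomes and endosomes. Its V1 sector in the cytosol hydrolyses ATP, and its V0 sector in the membrane carries the protons. Low pH matures and activates the cathepsins and other acid hydrolases in the lysosome lumen. Many of these genes are targets of TFEB and TFE3, basic helix-loop-helix factors of the MiT family that bind the CLEAR (coordinated lysosomal expression and regulation) motif, an extended E-box. Notch1 acts through the DNA-binding protein RBPJ together with Mastermind-like.

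RefSeq promoter windows of GRCm38.p6 mouse genome assembly, which run from 250 bases before to 50 bases after a start site, were held for 28 of the 35 genes, in 33 windows. The CLEAR core TCACGTGA, which reads the same on both strands, lay in 7 of the 33 windows (21.2%), each of a different gene, and in 0.974% of all 32851 windows. The 7 genes were Atp6v0d1, Atp6v0e, Atp6v1a, Mcoln1, Ctsa, Ctsd and Gla. The plain E-box CACGTG, which lies inside the CLEAR core, was in 33.3% of the windows of these genes and in 7.15% of all windows. The RBPJ core TGGGAA, or TTCCCA on the other strand, was in 24.2% and 25.6%. These matches describe the letters of the windows and do not show binding. The CLEAR motif is named for lysosomal genes and the set is a list of such genes. Its higher share here is therefore not a separate finding. The 2 promoters below belong to the only genes of the set that passed the test in more than 1 comparison of groups, Ctsd and Atp6v0a1. They are the 250 bases before the start site, 5′ to 3′ in the sense of the gene, with the CLEAR core in capitals. The Ctsd stretch lies at chr7:142387828-142388077 on the minus strand and the Atp6v0a1 stretch at chr11:101010148-101010397 on the plus strand.
Ctsd: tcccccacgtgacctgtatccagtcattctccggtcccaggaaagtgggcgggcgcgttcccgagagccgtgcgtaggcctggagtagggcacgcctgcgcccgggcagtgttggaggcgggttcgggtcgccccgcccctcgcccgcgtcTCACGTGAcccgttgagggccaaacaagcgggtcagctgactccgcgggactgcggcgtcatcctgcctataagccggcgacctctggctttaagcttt
Atp6v0a1: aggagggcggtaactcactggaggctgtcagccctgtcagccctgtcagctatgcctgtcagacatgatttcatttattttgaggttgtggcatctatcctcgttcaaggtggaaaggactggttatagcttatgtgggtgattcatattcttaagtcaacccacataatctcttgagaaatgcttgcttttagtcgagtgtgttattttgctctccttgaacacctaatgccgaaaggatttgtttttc
The Ctsd stretch holds the CLEAR core, and the Atp6v0a1 window holds neither the core nor the E-box. Neither window holds the RBPJ core. The sites of 4 further pump and lysosome genes, with 10 bases on each side and the core in capitals, show the setting of the core. For Ctsa it is the first of 2 sites.
Atp6v0d1: cctactgcggTCACGTGAgacgcggtgc
Atp6v1a: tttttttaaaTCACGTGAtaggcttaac
Mcoln1: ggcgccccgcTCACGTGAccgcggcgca
Ctsa: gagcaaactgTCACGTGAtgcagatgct
They lie at chr8:105566051-105566078 (minus strand), chr16:44139374-44139401 (minus), chr8:3500463-3500490 (plus) and chr2:164833750-164833777 (plus).

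Expression is given as the deposited log2 value, so that a difference of 1 is a doubling on the authors' scale. Fold sizes given below are that difference turned into a ratio. Differences were fitted with limma over all 24 arrays with 1 mean per group. A gene was called where its Benjamini-Hochberg adjusted p over the 19938 genes was under 0.05, and "rose" and "fell" are used only of called genes. Precision is limited by the number of arrays. These had medians between 3.90 and 4.18, and arrays correlated at 0.982 to 0.994 within groups and at 0.976 to 0.995 between groups. The median over all 35556 probe sets of their mean level was 3.99, and genes below it are called dim here. All 8 T-cell markers measured had means over the 24 arrays above that line, from Ptcra at 4.49 to Cd3e at 10.40. Single arrays lay below it for Ptcra (lowest 3.91) and for Rag1, which ranged from 2.86 to 7.99. Of 10 myeloid markers, whose cells are rich in lysosomes, only Cd68 did (5.63 to 6.21 over the arrays), while Csf1r lay between 2.99 and 3.43 and Lyz2 between 2.91 and 4.14. The mean of the 10 myeloid markers on an array ranged from 3.25 to 3.48, no myeloid marker was called in any comparison, and 0 of 5 B-cell markers were above the line. Nrarp, a direct Notch target, checked the labels: its mean was 5.31 in MigR1-DMSO, 4.09 in MigR1-GSI, 4.07 and 4.17 in the DNMAML groups, and 6.12 to 6.37 in the 4 groups with added intracellular Notch1. Notch1 itself had means of 6.22 in MigR1-DMSO, 5.66 to 5.81 in MigR1-GSI and the DNMAML groups, and 7.01 to 7.32 with added intracellular Notch1.

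Most of the 35 genes varied little between groups. The median range of the 8 group means was 0.34, and the SD within groups, pooled over the groups, was 0.11 to 0.46 with a median of 0.20. Only Atp6v0a1 and Ctsd had group means more than 1 apart, by 1.75 and 1.49, and Psap came next at 0.76. In this fit these 2 genes were also the only ones called in any of the 10 comparisons of groups, and the other 33 were called in none. Each comparison called between 1 and 469 of all 19938 genes, with the shares given below. With the replicate number as a block, further genes of the set were called, as described below. By group means, 23 of the 35 genes were highest in a DNMAML group, 14 of them in DNMAML-DMSO, and 14 were lowest in MigR1-DMSO. The test covered 3 dim genes, Ctsl (3.18), Ctss (2.98) and Tfeb (3.82), for which a small difference is hard to see.

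**Figure D1:**
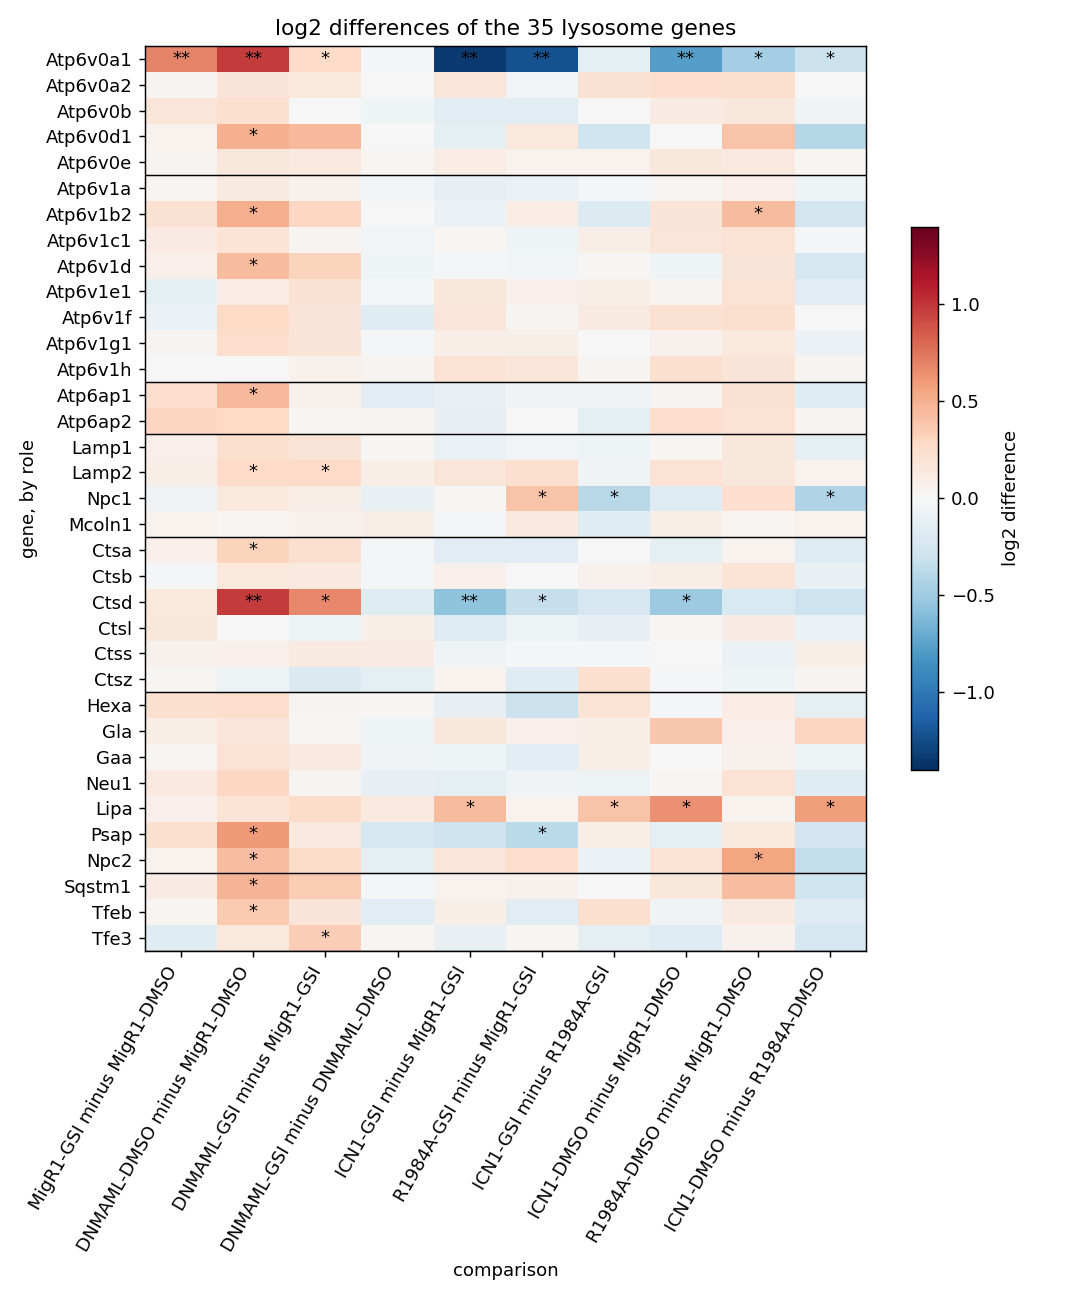
Log2 differences of the 35 genes (rows, by role) in the 10 comparisons of groups (columns). Red is higher and blue lower in the group named first, 2 asterisks mark an adjusted p under 0.05 and 1 asterisk an unadjusted p under 0.05; Atp6v0a1 and Ctsd hold all the marks of the first kind.

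Atp6v0a1 encodes an a subunit of the V0 sector, the subunit that forms the path of the protons and whose isoforms place the pump in different membranes. It was highest where Notch transcription was blocked and lowest where intracellular Notch1 was added, read from probe set 10381187. In bulk RNA, a lower level per cell and fewer cells with a level cannot be told apart. In MigR1-DMSO its log2 values were 5.30, 5.16 and 5.10, and in MigR1-GSI they were 5.80, 5.74 and 6.11. The DNMAML groups were higher, with 6.10, 6.17 and 6.23 in DMSO and 6.28, 6.08 and 6.08 in GSI. The ICN1 groups were the lowest, with 4.30, 4.56 and 4.40 in DMSO and 4.57, 4.60 and 4.44 in GSI. R1984A gave 4.93, 4.72 and 4.49 in DMSO and 4.76, 4.73 and 4.50 in GSI. No array with added intracellular Notch1 reached the lowest MigR1 array, and every DNMAML array lay above all MigR1-DMSO arrays.

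The order of the group means of Atp6v0a1 was DNMAML-DMSO (6.17 ± 0.07, SD, n = 3), DNMAML-GSI (6.15 ± 0.11), MigR1-GSI (5.88 ± 0.20), MigR1-DMSO (5.19 ± 0.10), R1984A-DMSO (4.72 ± 0.22), R1984A-GSI (4.66 ± 0.14), ICN1-GSI (4.54 ± 0.08) and ICN1-DMSO (4.42 ± 0.13). DNMAML-DMSO stood 0.98 above MigR1-DMSO (SE 0.12, 95% interval 0.73 to 1.24), 1.97-fold, with an adjusted p of 6.05e-05. It rose by 0.69 with GSI in MigR1 cells (SE 0.12), 1.62-fold, with an adjusted p of 0.0128. That second call rested on single arrays: it was lost without replicate 2 or 3 of MigR1-DMSO (adjusted p 0.0888 and 0.0932) and without replicate 3 of MigR1-GSI (0.122). Under GSI, ICN1 was 1.34 below MigR1 (interval of the difference -1.60 to -1.09, adjusted p 2.47e-07, 2.54-fold), and R1984A fell by 1.22 against MigR1 (adjusted p 1.47e-06, 2.33-fold). Under DMSO, Atp6v0a1 in ICN1 fell by 0.77 (adjusted p 0.00112, 1.70-fold). In R1984A-DMSO the difference of -0.47 was not called (adjusted p 0.076), though all its arrays were lower. With the replicate number as a block it was called (adjusted p 0.0373).

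Several neighbours in that order were not called different from each other. GSI in DNMAML cells left Atp6v0a1 at a difference of -0.022 (interval -0.28 to 0.23), against the 0.69 seen in MigR1 cells. The test of that difference in response gave -0.72 (SE 0.17) with an adjusted p of 0.788, so the response was not shown to differ between constructs. The corresponding values were -0.58 for ICN1 (adjusted p 1) and -0.75 for R1984A (adjusted p 0.501). DNMAML-GSI against MigR1-GSI gave 0.27 (adjusted p 0.769). ICN1 against R1984A gave -0.13 under GSI (interval -0.38 to 0.13) and -0.30 under DMSO (interval -0.55 to -0.041, adjusted p 0.513), neither called. These comparisons share control arrays: MigR1-DMSO enters 4 of the comparisons of groups, and so does MigR1-GSI.

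The other 4 measured V0 subunits were called in no comparison of groups. Atp6v0a2, the other a isoform of the set, differed by 0.18 between DNMAML-DMSO and MigR1-DMSO and by 0.17 between ICN1-GSI and MigR1-GSI, and neither was called. Its second probe set gave -0.15 and 0.11 in the same comparisons. Atp6v0b, a ring subunit, gave 0.23 and -0.14, and Atp6v0e gave 0.15 and 0.10. Atp6v0d1, which links the membrane ring to the central stalk, had values of 6.35, 6.05 and 6.04 in MigR1-DMSO and of 6.60, 6.80 and 6.52 in DNMAML-DMSO. All its DNMAML-DMSO arrays were higher, by 0.50 on average, which was not called (adjusted p 0.415) but was with the replicate block (0.0421). Its arrays were also all higher in DNMAML-GSI than in MigR1-GSI, by 0.46 (adjusted p 0.804), and its difference in ICN1-GSI against MigR1-GSI was -0.13. Whether these subunits differed from Atp6v0a1 in response was not tested.

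**Figure D2:**
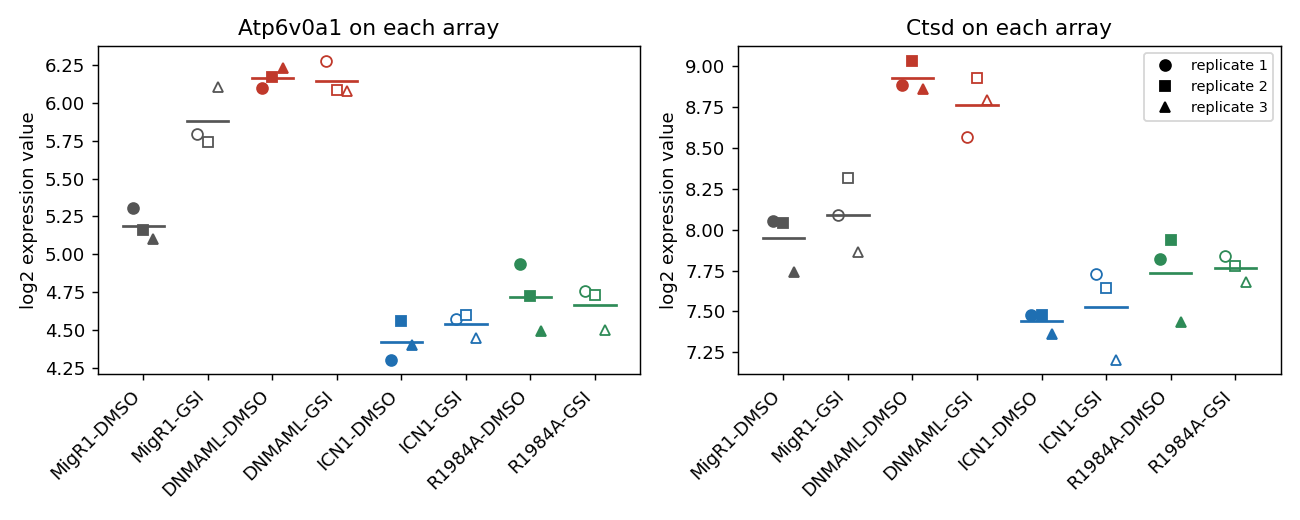
Log2 values of Atp6v0a1 (left) and Ctsd (right) on each of the 24 arrays by group; symbols mark the replicate number, open symbols the GSI groups, and lines the group means. DNMAML arrays are the highest for both genes, except that MigR1-GSI replicate 3 of Atp6v0a1 (6.11) reaches into them, and the 2 lowest group means are those of ICN1.

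Ctsd encodes cathepsin D, an aspartyl protease of the lysosome lumen. It was higher with DNMAML and lower with ICN1, while GSI in MigR1 cells moved it by less than its error. The values of its probe set 10569319 in DNMAML-DMSO were 8.89, 9.03 and 8.86, and in DNMAML-GSI 8.57, 8.93 and 8.79. MigR1-DMSO gave 8.05, 8.04 and 7.74 and MigR1-GSI 8.09, 8.32 and 7.86. ICN1-DMSO gave 7.48, 7.48 and 7.36, ICN1-GSI 7.73, 7.64 and 7.21, R1984A-DMSO 7.82, 7.94 and 7.44, and R1984A-GSI 7.84, 7.78 and 7.68. All 6 DNMAML arrays lay above every array of the other constructs, and all ICN1 arrays lay below the lowest MigR1 array.

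Ctsd rose by 0.98 in DNMAML-DMSO (8.93 ± 0.09, n = 3) against MigR1-DMSO (7.95 ± 0.18), with an SE of 0.15, a 95% interval of 0.67 to 1.29 and an adjusted p of 5.3e-04. Under GSI the same contrast gave 0.67 and was not called (adjusted p 0.0829), but was with the replicate block (0.00326), which called 0.818% of all genes there. Ctsd in ICN1-GSI was 0.56 below MigR1-GSI (interval of the difference -0.87 to -0.25), with an adjusted p of 0.0457. That call was lost without replicate 1 or 2 of MigR1-GSI (adjusted p 0.115 and 0.227) and without replicate 2 or 3 of ICN1-GSI (0.0614 and 0.262). In ICN1-DMSO the difference from MigR1-DMSO was -0.51 and was not called (adjusted p 0.193). It was called with the replicate block (0.018), after quantile normalization of the deposited values (0.0135) and when arrays were weighted (0.0112). R1984A differed from MigR1 by -0.33 under GSI (adjusted p 0.615) and by -0.21 under DMSO (0.929). The difference under GSI was called when arrays were weighted (-0.43, adjusted p 0.0486), a setting that called 690 of 19938 genes there. ICN1 and R1984A differed by -0.24 under GSI (interval -0.55 to 0.072) and by -0.29 under DMSO (interval -0.60 to 0.016), so that a difference of either size was not told from none. The difference of GSI in MigR1 cells was 0.14 (interval -0.17 to 0.45).

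The other 5 cathepsins of the set were called nowhere. Ctsa, the protective protein that holds sialidase and galactosidase together, lay at 6.52, 6.30 and 6.38 in MigR1-DMSO and at 6.65, 6.91 and 6.58 in DNMAML-DMSO. Its DNMAML-DMSO arrays were all higher, and the difference of 0.32 was not called (adjusted p 0.407). Ctsb, a cysteine protease, differed by 0.15 and Ctsz, a carboxypeptidase, by -0.069, the only 1 of the 35 differences below 0. Ctsl and Ctss, both dim, differed by 0.0093 and 0.072.

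DNMAML-DMSO against MigR1-DMSO compares cells in which Notch transcription is blocked at its coactivator with cells whose own Notch1 is active. Of the 35 genes, 34 had a higher mean in DNMAML-DMSO, with a median difference of 0.23, while the median over all 19938 genes was -0.0042 and 49% of them were above 0. Over the 10574 genes that were not dim the median was 0.019 and 54% were above 0. The pump genes and the others were alike in this: 15 of 15 were above 0 with a median of 0.25, and 19 of 20 with a median of 0.21. The shift was small for single genes. Only 2, Atp6v0a1 and Ctsd, were called higher and 0 lower, where 1.1% of all genes were called higher and 0.833% lower. At an unadjusted p under 0.05, 12 were higher and 0 lower, where 5.82% and 4.57% of all genes were. For 12 genes all DNMAML-DMSO arrays were above all MigR1-DMSO arrays, against 8.31% of all genes, and for 0 they were all below, against 8.02%. Taken by replicate number, the medians over the 35 genes were 0.15, 0.31 and 0.32. Groups with added intracellular Notch1 also leaned upward against the same MigR1-DMSO arrays. R1984A-DMSO had 31 of 35 genes above 0 (median 0.16) and ICN1-DMSO had 25 (median 0.042). The part of the shared MigR1-DMSO arrays in the DNMAML-DMSO shift was not tested. Of the 10 myeloid markers, 0 were called in this comparison, 5 were above 0 with a median of 0.014, and 2 had an unadjusted p under 0.05, Lyz2 (0.47, with a mean of 3.59 in DNMAML-DMSO, below the line for dim genes) and Cd68 (0.27). Of the 8 T-cell markers, Thy1 rose by 0.72 (adjusted p 0.00786) and Cd247 by 1.08 (adjusted p 0.00104), and Rag1 fell by 2.15 (adjusted p 2.84e-04). The part of these differences in the shift of the lysosome genes was not tested.

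The genes named in the next sentences were chosen after their values were seen, as those with an unadjusted p under 0.05 that the adjustment did not pass. Among V1 subunits, all 8 of which had a higher mean, Atp6v1b2, of the ring that hydrolyses ATP, had 7.01, 6.84 and 6.62 in MigR1-DMSO and 7.32, 7.44 and 7.22 in DNMAML-DMSO, without overlap. Its difference of 0.50 (SE 0.14) had an adjusted p of 0.0663, and of 0.0036 with the replicate block. Atp6v1d, part of the central stalk, had values of 8.80, 8.46 and 8.13 in MigR1-DMSO and of 9.00, 8.93 and 8.79 in DNMAML-DMSO, which overlap, and differed by 0.44 (adjusted p 0.274). The other 6 V1 subunits, from Atp6v1h at 0.0057 to Atp6v1f at 0.28, did not reach an unadjusted p of 0.05. Atp6ap1, an accessory subunit needed for assembly of the pump, differed by 0.46 (adjusted p 0.46), and its MigR1-DMSO arrays spread from 6.71 to 7.37.

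Of the 4 membrane genes, the glycoprotein gene Lamp2 had the tightest arrays, 7.71, 7.60 and 7.61 against 7.85, 7.89 and 7.97, with a difference of 0.26 (adjusted p 0.331). Lamp1 (0.23), the cholesterol exporter Npc1 (0.15) and the calcium channel Mcoln1 (0.030) did not reach an unadjusted p of 0.05. Among lumenal proteins, Psap encodes prosaposin, the precursor of the saposins that present sphingolipids to their hydrolases. It gave 7.02, 6.72 and 6.56 in MigR1-DMSO and 7.44, 7.50 and 7.15 in DNMAML-DMSO, all higher, and its difference of 0.60 (SE 0.17) had an adjusted p of 0.0909, and of 0.00106 with the block. Npc2, the lumenal cholesterol carrier, had 8.65, 8.39 and 8.11 against 8.97, 8.78 and 8.69, a difference of 0.43 (adjusted p 0.398, and 0.00947 with the block). The remaining 5, Hexa, Gla, Gaa, Neu1 and Lipa, which break down glycolipids, glycogen, sialic acid conjugates and lipid esters, had differences between 0.17 and 0.29.

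Sqstm1, the p62 autophagy receptor, lay at 7.53, 7.06 and 6.75 in MigR1-DMSO and at 7.76, 7.80 and 7.22 in DNMAML-DMSO. The groups overlapped, and the difference of 0.48 had an adjusted p of 0.435, and of 0.0182 with the block. Tfeb itself was dim by its mean over all arrays (3.82). It gave 3.62, 3.84 and 3.75 in MigR1-DMSO and 4.10, 4.08 and 4.13 in DNMAML-DMSO. The difference was 0.36 (adjusted p 0.30), with all DNMAML-DMSO arrays higher. Tfe3 differed by 0.14. The 7 genes with a CLEAR core in their window had a median difference of 0.17, all 7 above 0, and the 21 without had 0.26, with 20 above 0. Between DNMAML-DMSO and MigR1-DMSO, deviations of samples of the same number correlated at 0.114 to 0.478, and of different numbers at -0.387 to 0.274. These ranges overlap. The replicate block, used because all same-number correlations passed 0.1, called 7 of the 35 genes. It called 4.68% of all genes there (934, against 386 without the block). The 7 were Atp6v0a1, Atp6v0d1, Atp6v1b2, Ctsd, Psap, Npc2 and Sqstm1.

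**Figure D3:**
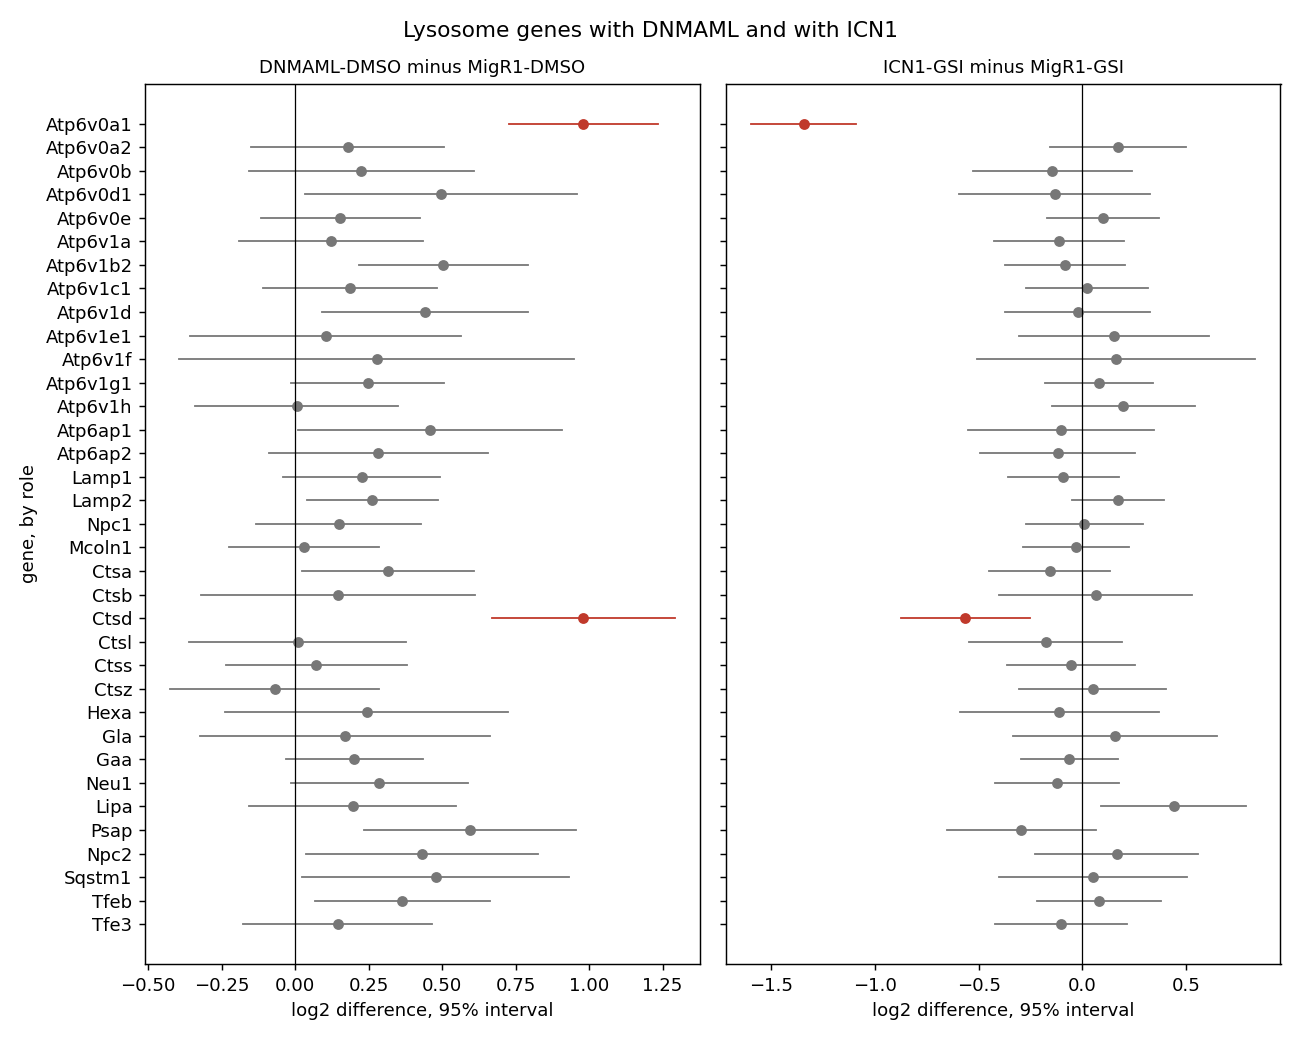
Log2 difference of each of the 35 genes with its 95% interval from limma, for DNMAML-DMSO minus MigR1-DMSO (left) and ICN1-GSI minus MigR1-GSI (right), on different scales. Red genes had an adjusted p under 0.05; on the left 34 of 35 points lie right of 0, and on the right 16 do.

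The next comparisons concern 6 hours of GSI. DNMAML-DMSO was not tested against MigR1-GSI, so the effects of DNMAML and GSI are not ranked here. In MigR1 cells, GSI against DMSO called 1 of the 35 genes, Atp6v0a1, where 0.166% of all genes were called. No other gene of the set had an unadjusted p under 0.05, which 4.88% of all genes had. The means of 29 genes were above 0 with a median of 0.069, and the medians by replicate number were 0.078, 0.19 and -0.055, so that replicate 3 went the other way. In DNMAML cells the same 6 hours of GSI gave a median of -0.022 with 13 of 35 above 0, and limma called 0 of the 35, where 0.00502% of all genes were called. It gave 0 of them an unadjusted p under 0.05, which 2.54% of all genes had. Psap had the lowest p, with values of 7.44, 7.50 and 7.15 in DMSO and of 7.11, 7.24 and 7.03 in GSI, a difference of -0.24 (adjusted p 1). DNMAML-GSI against MigR1-GSI gave a median of 0.14 with 32 of 35 above 0, where 55.6% of the genes that were not dim were above 0. By replicate number the medians were 0.084, 0.086 and 0.29, and without all replicate 3 arrays 25 of 35 were above 0. Limma called 0 there, where 0.191% of all genes were called, and 4 had an unadjusted p under 0.05 (6.26% of all genes), all higher: Ctsd, Atp6v0a1, Lamp2 (0.26) and Tfe3 (0.34).

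ICN1 and R1984A under GSI compare added Notch1, with and without the ability to dimerize, against cells whose own Notch1 was not being cleaved. The median difference over the set was -0.030 for ICN1 with 16 of 35 above 0, and -0.033 for R1984A with 17 above 0. The numbers above 0 depended on replicate 3 and on array weights: without all replicate 3 arrays they were 10 and 11, with medians of -0.085 and -0.080, and with array weights 10 and 7, with medians of -0.079 and -0.074. In ICN1-GSI 2 genes fell, Atp6v0a1 and Ctsd, where 1.07% of all genes were called lower, and 0 rose, where 1.28% were called higher. In R1984A-GSI 1 gene fell, Atp6v0a1, where 0.326% were called lower, and 0 rose, where 1.04% were called higher. Lipa, the lysosomal acid lipase, had 6.63, 6.60 and 6.23 in MigR1-GSI and 7.21, 7.02 and 6.55 in ICN1-GSI. These overlapped, and the difference of 0.44 was not called (adjusted p 0.264). The rest of the set lay between -0.29 (Psap) and 0.20 (Atp6v1h) in ICN1-GSI. By role, the 8 V1 subunits had a median of 0.053 in ICN1-GSI and 0.055 in R1984A-GSI, and the 6 cathepsins -0.11 in both. Psap had values of 7.26, 6.98 and 6.73 in MigR1-GSI and of 6.73, 6.75 and 6.34 in R1984A-GSI, which overlap narrowly at 6.73 to 6.75, and its difference of -0.38 was not called (adjusted p 0.603). The medians by replicate number were -0.11, -0.12 and 0.13 for ICN1-GSI and -0.022, -0.17 and 0.15 for R1984A-GSI against MigR1-GSI.

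Under DMSO, where MigR1 cells have their own active Notch1, ICN1 called 1 of the 35 genes lower, Atp6v0a1, and 0 higher, where 0.727% of all genes were called in either direction. The median was 0.042 with 25 of 35 above 0. Lipa was higher on every ICN1-DMSO array, at 7.07, 6.94 and 7.16 against 6.36, 6.52 and 6.37 in MigR1-DMSO. Its difference of 0.64 (SE 0.17) had an adjusted p of 0.101, and of 0.0262 with the replicate block, which called 1.49% of all genes there. R1984A-DMSO against MigR1-DMSO had a median of 0.16 with 31 of 35 above 0, beside a median of 0.032 and 58.1% above 0 over all genes that were not dim. Limma called 0 of the 35 there, where 0.978% of all genes were called, with 3 at an unadjusted p under 0.05 (6.66% of all genes). Those were Atp6v1b2 (0.44, adjusted p 0.234, and 0.0195 with the block), Npc2 (0.55, adjusted p 0.344, and 0.00167 with the block) and Atp6v0a1. The block called 1.84% of all genes there. Atp6v1b2 lay at 7.39, 7.27 and 7.13 in R1984A-DMSO, above every MigR1-DMSO array. Npc2 gave 9.15, 9.07 and 8.59 in R1984A-DMSO, of which 1 array lay within the MigR1-DMSO range. All 8 V1 subunits and all 7 lumenal proteins other than cathepsins had a higher mean in R1984A-DMSO than in MigR1-DMSO, with medians of 0.19 and 0.10.

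ICN1 and R1984A differ in dimerization of the Notch1 complex, and their Notch1 readings differed as well. Notch1 was higher on every ICN1 array than on every R1984A array, by 0.25 under GSI and 0.27 under DMSO. Nrarp was higher by 0.25 under GSI and 0.20 under DMSO, where its arrays overlapped. None of these differences was called. Dimerization and Notch1 level cannot be told apart in this comparison. Limma called 0 of the 35 under GSI, where 1.1% of all genes were called, with 2 at an unadjusted p under 0.05 (8.88% of all genes). Under DMSO it called 0, where 0.963% were called, with 3 at that unadjusted p (7.07%). Under GSI the lowest p was that of Npc1, the lysosomal cholesterol exporter, with 5.63, 5.84 and 5.47 in ICN1-GSI and 6.06, 6.11 and 5.91 in R1984A-GSI. The ICN1 arrays were all lower, by 0.38 on average (interval of the difference -0.66 to -0.10, adjusted p 0.293), and the DMSO difference was -0.42 (adjusted p 0.227). Under DMSO the lowest p was that of Lipa, with ICN1-DMSO above every R1984A-DMSO array (6.60, 6.53 and 6.28). The difference was 0.59 (interval 0.24 to 0.94, adjusted p 0.134), and it passed with the replicate block (0.0365), which called 2.29% of all genes there. The median over the 35 genes was -0.0065 under GSI and -0.099 under DMSO. The 4 tests for unequal GSI responses called 0 of the 35 genes each with limma. For DNMAML against MigR1, 0.00502% of all genes were called, and 1 of the 35 had an unadjusted p under 0.05 (3.11% of all genes). For ICN1 against MigR1 these were 0.015%, 1 and 3.19%, for R1984A against MigR1 0.0251%, 2 and 3.52%, and for ICN1 against R1984A 0%, 0 and 2.31%. The gene of lowest p was Atp6v0a1 in the first 3 and Tfeb, at 0.41, in the last (adjusted p 1).

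The set as a whole also moved with the replicate number. When each gene was centred on its own mean over the 24 arrays, the median over the 35 genes was lowest on replicate 3 in 8 of 8 groups. In MigR1-DMSO it was 0.060, -0.11 and -0.28 on replicates 1 to 3, and in MigR1-GSI 0.10, 0.093 and -0.34. In DNMAML-DMSO it was 0.20, 0.20 and 0.066. The same median over all genes that were not dim was also lowest on replicate 3 in 8 of 8 groups, within a range of -0.11 to 0.088, as in MigR1-GSI with 0.026, 0.032 and -0.11. The labels do not say what a replicate number stands for. Without all replicate 3 arrays, a setting chosen after seeing the data, the 2 calls of DNMAML-DMSO stayed at 2, the call of GSI in MigR1 cells went from 1 to 0 (Atp6v0a1, adjusted p 0.232), and ICN1-GSI went from 2 calls to 1. The median difference between DNMAML-DMSO and MigR1-DMSO was then 0.20, with 35 of 35 genes above 0.

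**Figure D4:**
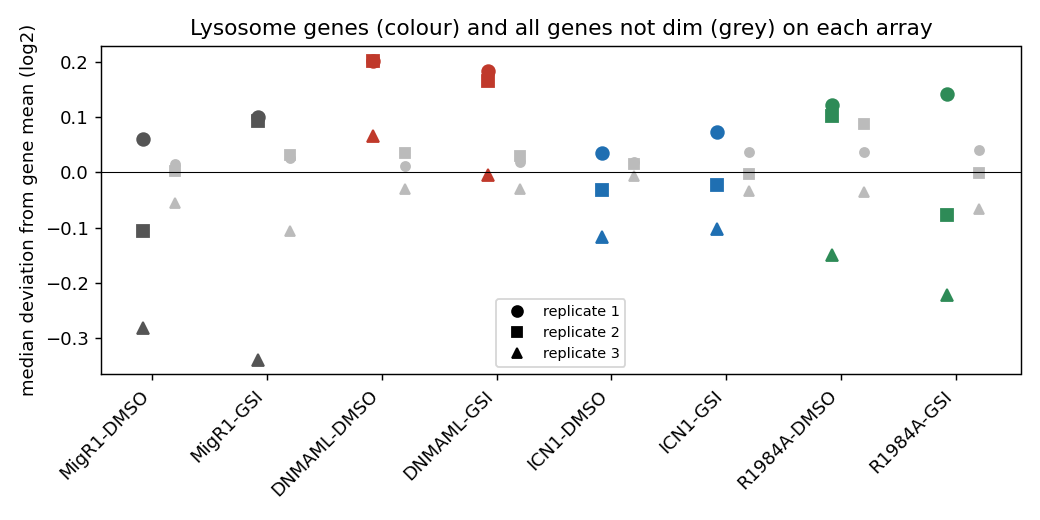
Median deviation from each gene's mean over 24 arrays (log2), for the 35 lysosome genes (colour) and for the 10574 genes that were not dim (grey), on each array by group; symbols mark the replicate number. Replicate 3 is the lowest coloured symbol in each of the 8 groups, and DNMAML-DMSO is the only group with all 3 coloured symbols above 0.

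Other genes of the same pathways were counted from 5 further lists. None of 17 further vacuolar pump genes, which are other subunit isoforms and assembly or regulatory factors, was called in any comparison. In DNMAML-DMSO against MigR1-DMSO their median difference was -0.026, with 0 higher and 1 lower at an unadjusted p under 0.05. How many of these 17 genes were dim was not counted. None of 22 genes of the MiT factors and of mTORC1 at the lysosome was called in any comparison, with a median of 0.091 in DNMAML-DMSO against MigR1-DMSO and 1 higher and 0 lower at that unadjusted p. In the same comparison 34 further hydrolases had a median of 0.12, with 1 called higher and 0 lower, and 8 higher and 1 lower at the unadjusted p. The 26 further membrane and transport genes had a median of 0.13, with 1 called higher and 0 lower, and 5 higher and 0 lower at the unadjusted p. The 35 genes of the autophagy machinery had a median of 0.16, with 0 called, and 7 higher and 0 lower at the unadjusted p. Over all genes 5.82% were higher and 4.57% lower at that p, and 1.1% were called higher and 0.833% lower. No comparison called more than 469 of the 19938 genes. Counts of 0 called in lists of 17 or 22 genes cannot be told from such shares.

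The called hydrolase was Galc, galactosylceramidase, which rose by 0.81 with DNMAML (SE 0.18, adjusted p 0.0143), a call lost in 5 of 6 fits that each left out 1 array, with adjusted p up to 0.0767. It fell by 0.71 in ICN1-GSI against MigR1-GSI (adjusted p 0.0311, lost in 3 of 6 such fits). The called membrane gene was Laptm5, a lysosomal protein of blood cells, which rose by 0.95 with DNMAML (SE 0.19, adjusted p 0.00679, lost without replicate 3 of MigR1-DMSO at 0.0567) and fell by 0.87 in ICN1-GSI (adjusted p 0.011, lost in 2 of 6). Thus 1 hydrolase and 1 membrane gene outside the set had the directions of Ctsd in both comparisons. Other genes went another way. Lgmn, the asparaginyl endopeptidase legumain, rose in all 4 comparisons of added Notch1 with MigR1: by 1.32 in ICN1-GSI (SE 0.16, adjusted p 1.63e-05), 1.10 in R1984A-GSI, 1.09 in ICN1-DMSO and 1.13 in R1984A-DMSO. Asah1, acid ceramidase, rose by 0.94 in R1984A-DMSO (adjusted p 0.0161, lost in 4 of 6).

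Igf2r, the receptor that carries mannose 6-phosphate tagged hydrolases to the lysosome, rose in R1984A cells, by 1.02 under GSI (SE 0.12, adjusted p 1.6e-05) and by 0.87 under DMSO (adjusted p 2.92e-04). It was lower in ICN1 than in R1984A, by a difference of -0.88 under GSI (adjusted p 2.96e-04) and -0.77 under DMSO (adjusted p 0.00135). None of these Igf2r calls was lost when single arrays were left out. That between ICN1-GSI and R1984A-GSI was lost when only the groups compared were fitted (adjusted p 0.0709). Ulk1, the kinase that starts autophagy, differed by -0.54 between ICN1-GSI and R1984A-GSI (adjusted p 0.0111, lost in 4 of 6), and Galc by -0.88 between ICN1-DMSO and R1984A-DMSO (adjusted p 0.0107, lost in 2 of 6). No gene among the 35 was called between the 2 forms of Notch1.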

How the data were processed

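RNA extracted with Trizol was measured on Affymetrix Mouse Gene 1.0 ST arrays. The deposited table holds the authors' log2 values for 35556 probe sets. The authors' tools, per the submitters' processing notes, were oligo and limma. Background correction and normalization are not given in the sources used here, and no further scaling was applied. The platform annotation gave 21789 probe sets with 1 symbol, 1621 with several and 12146 unnamed. Limma 3.58.1 in R 4.3.3 fitted 1 mean per group over 24 arrays (16 residual and 6.56 prior degrees of freedom), two-sided, after tests on simulated data. The 35 genes and the lists were chosen with earlier results of these data known. By rule, genes called in any comparison are described on every array, with others of their role, the gene of lowest p where none was called, and up to 4 called genes of each other list. Samples of the same number deviated together (lowest correlation over 0.1) in 7 of 10 comparisons of groups, from 0.114 for DNMAML-DMSO against MigR1-DMSO to 0.225, and not in ICN1-GSI or R1984A-GSI against MigR1-GSI or between these. Alternatives were the replicate block, only the groups compared, quantile normalization, array weights, a filter on dim genes, every probe set, and leaving out arrays.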

Additional observations from a re-analysis of the deposited data

How the results depend on the processing

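Of 756 values of 56 single-gene results under the alternatives, 686 kept their direction and side of the threshold, 30 passed it, 40 no longer did and 0 changed sign. The 56 results were picked for a low p in the reported fit of the same arrays, so changes of sign were unlikely to arise. The 686 include results that were not called in either fit. No median over the 35 genes moved by more than the SD of array medians between replicates, which includes the shift of replicate 3. Medians stayed on 1 side of 0 for DNMAML-DMSO (0.13 to 0.30), DNMAML-GSI (0.045 to 0.24) and R1984A-DMSO (0.065 to 0.23) against MigR1. That of ICN1-DMSO against R1984A-DMSO also did (-0.16 to -0.048). The others crossed 0, such as GSI in MigR1 cells (-0.0055 to 0.21), and ICN1-GSI (-0.12 to 0.049) and R1984A-GSI (-0.18 to 0.052) against MigR1-GSI. Calls among the 35 genes were as follows, with calls over all genes in brackets, and the cause of each change was not tested. The replicate block called 7 (934) in DNMAML-DMSO, 1 (163) in DNMAML-GSI, 3 (297) in ICN1-DMSO and 3 (366) in R1984A-DMSO against their MigR1 groups, and 1 (456) between ICN1-DMSO and R1984A-DMSO, where the reported fit called 386, 38, 145, 195 and 192 over all genes. It changed no other call among the 35. Only the groups compared gave 0 (4) for GSI in MigR1 cells, 1 (167) for ICN1-GSI and 2 (110) for ICN1-DMSO, where the reported fit called 33, 469 and 145. Quantile normalization gave 4 (512) for DNMAML-DMSO, 1 (57) for DNMAML-GSI, 2 (145) for ICN1-DMSO and 1 (223) between ICN1-DMSO and R1984A-DMSO. Array weights gave 4 (834), 1 (90) and 3 (316) for DNMAML-DMSO, DNMAML-GSI and ICN1-DMSO, 2 (690) for R1984A-GSI and 3 (338) for R1984A-DMSO. The dim filter gave 3 (462 of 10574) for DNMAML-DMSO, with Atp6v1b2 added at an adjusted p of 0.0409, and 1 (215) for R1984A-DMSO. Every probe set gave 1 (503 of 35556) for ICN1-GSI. Leaving out all replicate 3 arrays gave 1 (366) for ICN1-GSI and 0 (17) for GSI in MigR1 cells. Leaving out 1 array gave 0 to 1 for GSI in MigR1 cells, 2 to 2 for DNMAML-DMSO, 1 to 2 for ICN1-GSI, 1 to 1 for R1984A-GSI and for ICN1-DMSO, and 0 to 1 for R1984A-DMSO (1 without R1984A-DMSO replicate 1), and 0 elsewhere. Dim probe sets limit what can be seen for Ctsl, Ctss and Tfeb.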
